A study of Mus musculus with 8 samples.

Results

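Loricrin (Lor), involucrin (Ivl), filaggrin (Flg), the cysteine-rich protein gene Crct1 and the late cornified envelope genes Lce1a1, Lce1f, Lce1l and Lce1m were followed in the whole skin of E18.5 mouse embryos, shortly before birth. They were chosen by name: every probe set, a group of short probes for a transcript, whose platform annotation gave 1 of these 8 symbols was taken, whatever its signal. This gave 13 probe sets, of the 21458 with a single symbol on the array set, which stand for 13674 genes. The 4 genes Lor, Ivl, Flg and Crct1 had 7 probe sets on the A chip, and the 4 Lce1 genes had 6 on the B chip.

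The arrays compared p63 null skin with wild-type skin. The embryos came from matings of p63 heterozygous mice, and each chip had 2 arrays of p63 null skin and 2 of wild-type skin, 8 arrays in all. The sources used here give neither the strain nor the p63 allele nor the sex of the embryos, and whole skin holds dermis, muscle and fat beside epidermis. The comparison addresses which transcripts of late embryonic skin depend on the presence of p63, the product of Trp63, a transcription factor that stratified epithelia need.

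The cornified envelope is the protein shell that replaces the plasma membrane of keratinocytes as they die at the skin surface. Involucrin is laid down early beneath the membrane, and loricrin, rich in glycine, later becomes its most abundant component. Transglutaminases crosslink both. Filaggrin is made as a long precursor, profilaggrin, stored in keratohyalin granules. It is cut into units that bundle keratin filaments and is finally broken down into the free amino acids that hold water in the cornified layer. The late cornified envelope proteins are small, cysteine-rich proteins joined to the envelope late in its assembly. All these genes lie in the epidermal differentiation complex, a gene cluster on mouse chromosome 3.

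Because the members fell together, their promoters are shown. RefSeq promoter entries on the GRCm38.p6 build were matched for 6 of the 8 genes. Lce1f and Crct1 were not matched. The 200 bases before the annotated start are chr3:92083143-92083342 (minus strand) for Lor, chr3:92573736-92573935 (minus strand) for Ivl, chr3:93273346-93273545 (plus strand) for Flg, chr3:92648308-92648507 (minus strand) for Lce1a1, chr3:92851287-92851486 (minus strand) for Lce1l and chr3:93019062-93019261 (minus strand) for Lce1m. Each is printed 5′ to 3′ along the gene. Capitals mark TGANTCA, a loose form of the AP-1 element that allows any middle letter, and the TATA box, TATAAA, searched on both strands.
Lor: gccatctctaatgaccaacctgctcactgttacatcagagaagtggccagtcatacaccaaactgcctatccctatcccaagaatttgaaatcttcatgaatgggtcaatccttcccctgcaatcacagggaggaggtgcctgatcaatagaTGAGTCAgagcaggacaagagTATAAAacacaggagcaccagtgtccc
Ivl: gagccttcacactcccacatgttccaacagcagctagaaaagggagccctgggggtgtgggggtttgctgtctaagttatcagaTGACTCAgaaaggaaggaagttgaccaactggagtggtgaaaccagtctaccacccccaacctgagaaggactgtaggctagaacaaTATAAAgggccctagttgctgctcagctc
Flg: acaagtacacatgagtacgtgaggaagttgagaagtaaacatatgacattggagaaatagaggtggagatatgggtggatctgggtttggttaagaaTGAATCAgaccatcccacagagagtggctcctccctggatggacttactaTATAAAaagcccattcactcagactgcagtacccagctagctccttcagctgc
Lce1a1: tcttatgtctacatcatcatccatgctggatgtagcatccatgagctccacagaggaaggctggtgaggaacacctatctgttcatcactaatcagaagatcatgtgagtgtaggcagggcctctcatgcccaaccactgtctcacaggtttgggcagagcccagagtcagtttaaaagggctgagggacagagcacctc
Lce1l: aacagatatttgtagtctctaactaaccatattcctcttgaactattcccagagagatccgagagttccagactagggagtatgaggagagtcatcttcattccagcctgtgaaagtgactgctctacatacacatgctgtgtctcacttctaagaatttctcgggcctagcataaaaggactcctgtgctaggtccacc
Lce1m: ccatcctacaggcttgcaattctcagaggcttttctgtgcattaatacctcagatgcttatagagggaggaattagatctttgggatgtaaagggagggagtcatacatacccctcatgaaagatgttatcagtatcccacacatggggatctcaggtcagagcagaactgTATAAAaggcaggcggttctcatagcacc

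TGANTCA, called the AP-1 letters here, stood in 3 of the 6 windows, those of Lor, Ivl and Flg. The matches began at positions -48, -116 and -103 from the start. The AP-1 consensus has C or G in the middle. Lor held TGAGTCA and Ivl TGACTCA, but Flg held TGAATCA, which is outside that consensus. Of the 32851 RefSeq promoters scanned over the same 200 bases, 5.48% held TGANTCA. The share with C or G in the middle was not counted. AP-1 is the dimer of Fos and Jun proteins, long studied as an activator of involucrin and loricrin. TATAAA stood in 4 windows, those of Lor (-27), Ivl (-29), Lce1m (-29) and Flg (-53), against 9.96% of all promoters. CACCC, the core letters bound by Krüppel-like factors, occurred in the windows of Ivl and Flg and in 45.5% of all. CATGNNNNNNCATG, a pair of the CATG cores found in sites of the p53 family, occurred in 0 of the 6 windows and in 0.390% of all promoters. By their spelling the AP-1 letters and the TATA letters cannot overlap, so their separation in these windows is no result. A match is a description of letters, and binding was not measured.

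Trp63 itself had signals of 61.9 and 46.6 in p63 null skin, against 379.3 and 347.1 in wild-type skin. Its log2 fold change, null minus wild type, was -2.49 (SE 0.18, limma adjusted p = 1.13e-05). The sources used here do not place its probes on the gene, so this is a check of the genotype labels only if they cover the altered part. The correlation r across probe sets was 0.980 between the null arrays and 0.984 between the wild-type arrays for the A chip, with 0.847 to 0.865 between genotypes. For the B chip these were 0.950 and 0.966, with 0.769 to 0.787 between genotypes.

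Every one of the 11 member probe sets with enough signal to be tested was lower in p63 null skin. Of the 5 tested on the A chip, 5 fell, where 22.2% of all tested probe sets of that chip fell, and their median log2 fold change was -4.84, against 0.02 over all. Of the 6 tested on the B chip, 6 fell, where 14.9% of all did, with a median of -4.45 against 0.04. Both null arrays lay below both wild-type arrays in all 11, an arrangement found in 36.2% of the A chip's tested probe sets and 31.7% of the B chip's. The other 2 member probe sets, 1 for Lor and 1 for Flg, stayed under the level for testing in these data. The level for testing corresponds to a signal of about 54.0 (A chip) or 167 (B chip). The null signals of Ivl and Lce1l were under it, so these passed through wild-type skin alone and could only be tested as lower. The members were named with earlier results of these arrays in view, so the counts describe them and are not independent evidence. The share of all probe sets that fell depended on single arrays: 1653 fell on the A chip, against 1254 when wild-type replicate 1 was left out and 1051 when replicate 2 was. On the B chip 1106 fell, against 572 and 542.

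**Figure D1:**
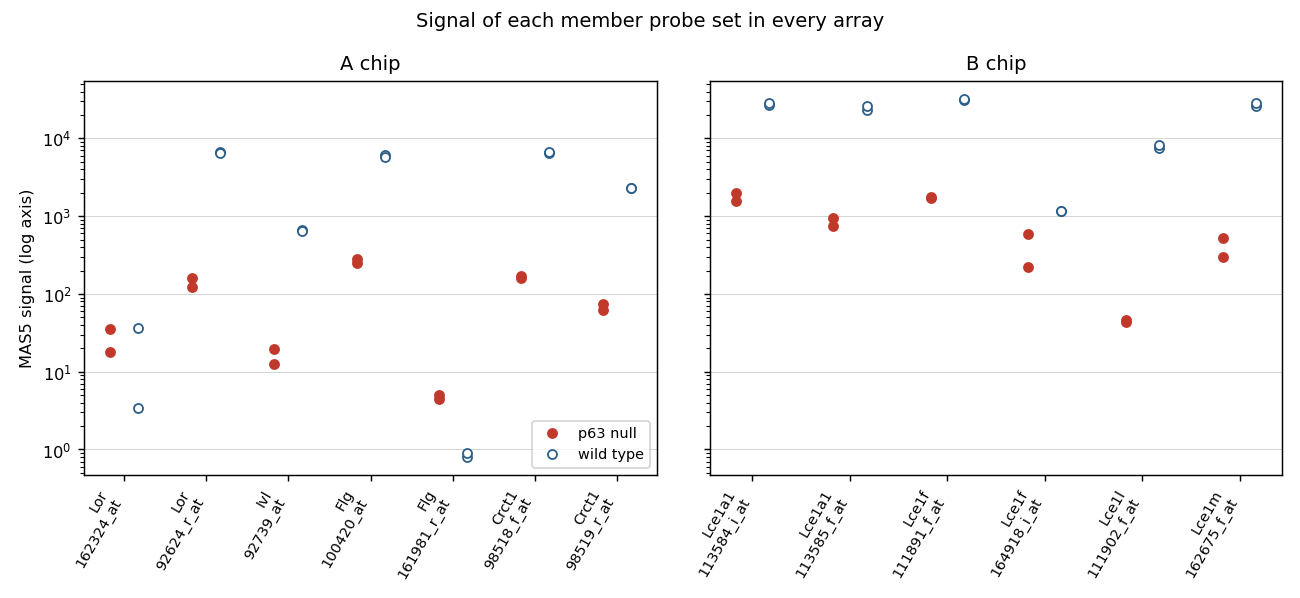
MAS5 signal on a log axis of the 13 member probe sets in every array, p63 null (filled) left of wild type (open), 2 embryos each. In the 11 tested probe sets the null points lie below the wild-type points, and the probe sets 162324_at (Lor) and 161981_r_at (Flg) read at most 36.4 and 5.0.

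Loricrin, the major envelope protein, read 123.8 and 161.5 in p63 null skin, against 6717.2 and 6462.7 in wild-type skin on probe set 92624_r_at. The null mean of 143 ± 26.7 was 2.16% of the wild-type mean of 6590 ± 180 (SD, n = 2 each). The log2 fold change was -5.42 (SE 0.14, 95% interval -5.73 to -5.11, limma adjusted p = 2.63e-08), which ranked 2 among all falls of the A chip. The other loricrin probe set, 162324_at, read 17.8 and 35.9 in null skin and 36.4 and 3.4 in wild-type skin. These low values overlap between genotypes and give no measure of the gene. The loricrin result thus rests on 92624_r_at alone. Its ending _r_at, explained below, calls for care, and what else its probes bind was not tested. The promoter of Lor printed above holds the AP-1 letters nearest to the start among the 3.

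Involucrin, the early scaffold of the envelope, read 12.4 and 19.8 in p63 null skin and 660.1 and 646.7 in wild-type skin. Null skin thus held 2.46% of the wild-type signal, with a log2 fold change of -4.53 (SE 0.19, 95% interval -4.97 to -4.10, limma adjusted p = 2.94e-07). The null values lie around 12.9, the 20th percentile of the chip, which was added to every signal before log2. The size of the fall therefore depended on that offset: it was -5.29 with an offset of 1 and -3.66 with 3 times the 20th percentile.

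Filaggrin read 250.7 and 282.1 in p63 null skin and 6065.0 and 5806.2 in wild-type skin on probe set 100420_at. Null skin had 4.49% of the wild-type signal, and the log2 fold change was -4.41 (SE 0.12, 95% interval -4.68 to -4.15, limma adjusted p = 2.63e-08). The other filaggrin probe set, 161981_r_at, read 4.5 and 5.0 in null skin and 0.8 and 0.9 in wild-type skin, all near the bottom of the scale. It ran the other way from 100420_at at signals too low for a test.

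Crct1 encodes a cysteine-rich C-terminal protein of the cluster, and 2 probe sets measured it. On 98518_f_at it read 160.4 and 172.4 in p63 null skin, against 6470.3 and 6650.3 in wild-type skin. On 98519_r_at it read 74.0 and 62.3 in null skin, against 2323.3 and 2287.5 in wild-type skin. The log2 fold changes were -5.20 (SE 0.11, limma adjusted p = 2.19e-08) and -4.84 (SE 0.13, limma adjusted p = 2.87e-08), with 95% intervals of -5.45 to -4.94 and -5.14 to -4.54 that overlap. Null skin had 2.54% and 2.96% of the wild-type signal, so both readings gave nearly the same residual share. The endings _f_at and _r_at, explained below, call for care, and what else these probes bind was not tested.

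In order of their fall on the A chip, Lor came first, then Crct1, Ivl and Flg. The 95% intervals of neighbours in that order overlap, while the interval of Lor does not reach those of Ivl and Flg. The place of Ivl depended on the offset: it was -3.66 against -4.29 for Flg with 3 times the 20th percentile, which turned their order, and -5.29 with an offset of 1, against -5.53 for Lor and -5.29 and -5.06 for the Crct1 probe sets. Differences between members were not tested.

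**Figure D2:**
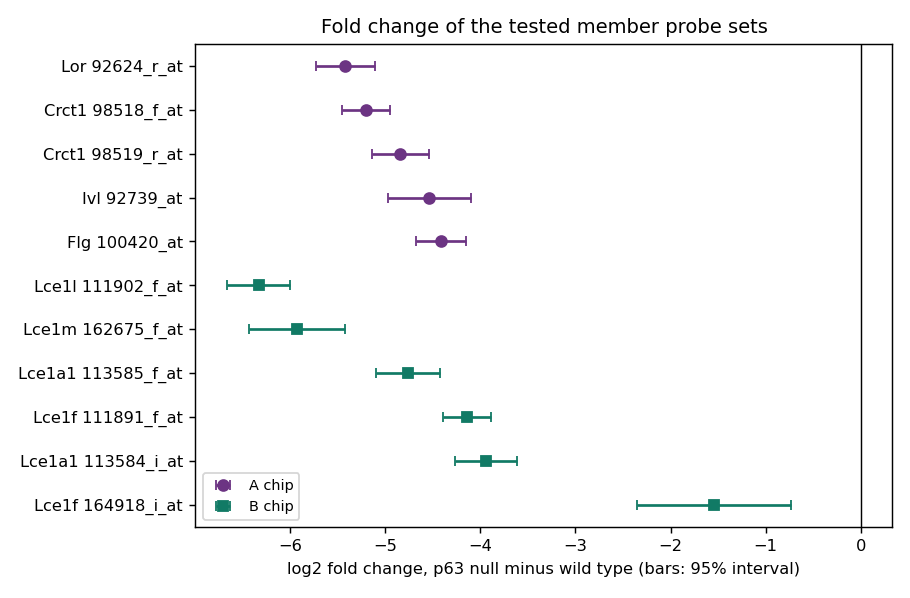
Log2 fold change of the 11 tested member probe sets, p63 null minus wild type, with 95% intervals from limma, ordered within the A chip (circles) and the B chip (squares). The values run from -6.33 for Lce1l to -1.54 for the second probe set of Lce1f, and all intervals lie below 0, the nearest reaching -0.73.

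The Lce1 genes encode near-identical proteins, and their probe sets need care. In the array maker's naming, the ending _f_at marks probes shared within a sequence family and _i_at an incomplete set, while _r_at, seen above, marks probes picked with some selection rules dropped, so a reading may hold the sum of several Lce1 transcripts. Of the 6 Lce1 member probe sets 4 end in _f_at. Each value below belongs to the probe set, and to the named gene only as far as its probes tell relatives apart.

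The lowest residual was that of Lce1l. Its probe set read 43.1 and 45.8 in p63 null skin, against 7574.4 and 8199.3 in wild-type skin, so that 0.564% of the wild-type signal was left. The log2 fold change was -6.33 (SE 0.14, 95% interval -6.66 to -6.00, limma adjusted p = 1.57e-06), which ranked 2 among the falls of the B chip. Both null values were under 54.3, the 20th percentile of that chip, and the log2 fold change was -7.44 with an offset of 1 and -5.28 with 3 times the 20th percentile.

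Lce1m read 520.5 and 300.6 in p63 null skin and 26259.5 and 28698.8 in wild-type skin. Null skin had 1.49% of the wild-type signal, with a log2 fold change of -5.93 (SE 0.22, 95% interval -6.43 to -5.42, limma adjusted p = 5.07e-06). The intervals of Lce1l and Lce1m overlap. With 3 times the 20th percentile as the offset their order turned, at -5.28 for Lce1l and -5.62 for Lce1m.

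Lce1a1 was read by 2 probe sets. On 113584_i_at it had signals of 1968.6 and 1561.2 in p63 null skin, against 27080.4 and 28251.0 in wild-type skin. On 113585_f_at it had 758.2 and 957.4 in null skin, against 22961.2 and 26170.9 in wild-type skin. Null skin had 6.38% and 3.49% of the wild-type signal on these probe sets. The log2 fold changes were -3.94 (SE 0.14, 95% interval -4.26 to -3.62, limma adjusted p = 4.34e-06) and -4.76 (SE 0.15, 95% interval -5.10 to -4.42, limma adjusted p = 2.02e-06). The intervals of these readings of 1 gene do not overlap.

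Among genes with both probe sets tested, Lce1f showed the widest disagreement between them. On 111891_f_at it read 1714.3 and 1780.2 in p63 null skin and 31212.0 and 32197.6 in wild-type skin, a residual of 5.51% and a log2 fold change of -4.14 (SE 0.11, 95% interval -4.40 to -3.88, limma adjusted p = 1.57e-06). On 164918_i_at it read 224.2 and 584.9 in null skin and 1182.9 and 1160.5 in wild-type skin, a residual of 34.5%. Its log2 fold change was -1.54 (SE 0.35, 95% interval -2.35 to -0.73, limma adjusted p = 0.0160), rank 228 among the falls of the chip. On the log2 scale its null arrays differed from each other more than those of any other tested member: without null replicate 1 the log2 fold change was -0.94, and without null replicate 2 it was -2.14. What the probes of 164918_i_at bind beside Lce1f was not tested.

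Relatives of the members on the B chip fell too, with 1 exception that could not be tested. Lce1a2 read 685.9 and 709.3 in p63 null skin, against 19779.3 and 21319.5 in wild-type skin (log2 fold change -4.78, limma adjusted p = 1.57e-06). Lce1h and Lce1k had log2 fold changes of -4.40 and -4.10 (limma adjusted p = 5.81e-06 and 0.000206). In Lce1k the null arrays read 148.0 and 38.6, under the level for testing, so it could only be tested as lower. Lce1b read 92.3 and 24.6 in null skin and 22.2 and 27.5 in wild-type skin, under the level for testing. These readings may bind transcripts of relatives to an unknown degree, which was not tested, so they may not be separate measurements of separate genes.

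**Figure D3:**
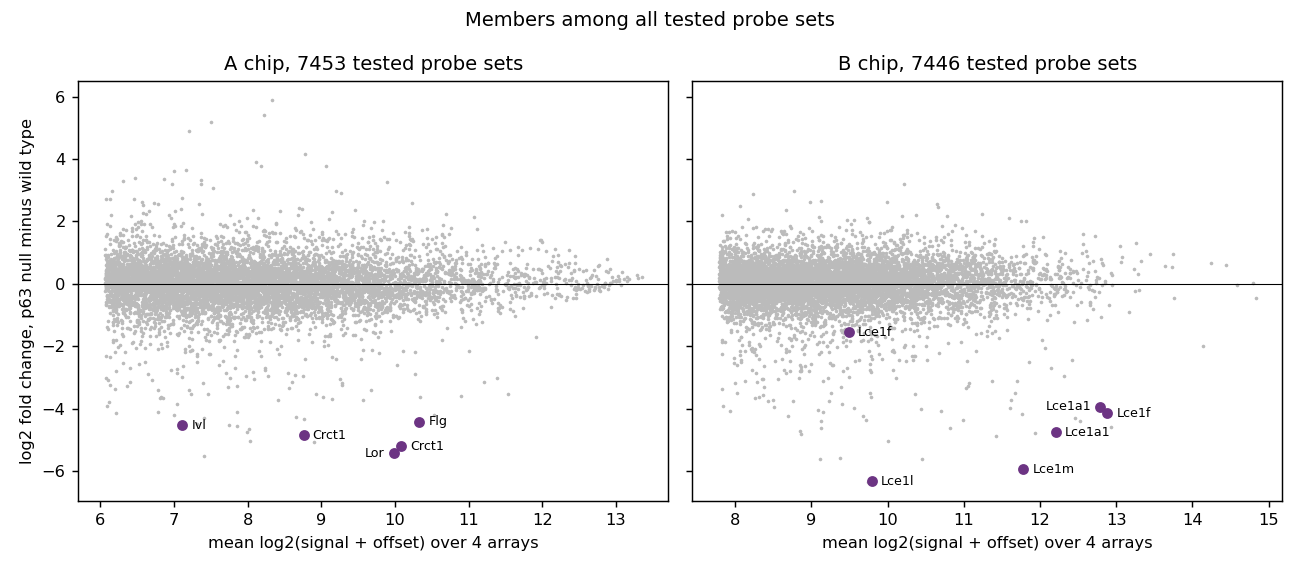
Log2 fold change, p63 null minus wild type, against mean log2(signal + offset) over the 4 arrays of a chip, for all tested probe sets (grey; A chip 7453, B chip 7446) and the members (purple, named). The members sit at the lower edge of the cloud on both chips, except the Lce1f probe set at -1.54.

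The genes lie in 1 cluster, and their neighbours did not all move with them. RefSeq lists 70 protein-coding genes from S100a1 to S100a10, the ends of the complex as taken here, of which 40 were named on a chip and 32 were tested. Read by the probe set with the highest signal, 19 of the 32 were lower in p63 null skin, 6 were higher and 7 were not called. The 8 members are 8 of the 19. Among the 19, Ivl, Lce1l, Lce1k and Sprr3 had null signals under the level for testing and could only be tested as lower. The Lce1 readings among them may not be separate measurements. Between Lor and Flg, the outermost members, 13 other genes were tested: 8 were lower, 1 was higher and 4 were not called, with a median log2 fold change of -1.32. On the S100 side of Lor, 9 genes were tested, with 2 lower and 5 higher and a median of 0.35. Beyond Flg, Rptn, which encodes the envelope protein repetin, fell by 1.03 (limma adjusted p = 0.0118).

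A list of 58 other genes of the complex and its families was set beside the shares over all tested probe sets. Those shares were 22.2% lower and 1646 of 7453 higher on the A chip, and 14.9% lower on the B chip. Of the 58, 21 were tested on the A chip, with 7 lower, 5 higher and a median of 0.09. On the B chip 5 were tested, with 4 lower, 0 higher and a median of -4.10. On the A chip the balance turned with the filter at the 60th percentile, to 3 lower and 5 higher of 16, and without null replicate 1, to 6 lower and 7 higher. S100a8 and S100a9, calcium-binding alarmins of neutrophils and stressed keratinocytes, rose by 4.17 and 3.90 on the log2 scale. S100a8 read 1867.2 and 1836.2 in null skin, against 92.9 and 88.1 in wild-type skin, the opposite pattern to Lor, which lies near it in gene order. Sprr2h and Sprr2d, small proline-rich precursors of the envelope, fell by 2.25 and 1.44 (limma adjusted p = 1.61e-05 and 6.27e-05). Sprr3 and Sprr1a were lower too, at -1.32 and -0.45. The readings of the family were divided: Sprr2b rose by 0.55 (limma adjusted p = 0.00310), and Sprr2e, Sprr2g, Sprr2i, Sprr2j-ps, Sprr2k and Sprr1b were not called. The Sprr probe sets that rose or were not called end in _f_at, save _r_at for Sprr1b, while those that fell have the plain ending _at. The division thus runs along the kind of probe set, and what else any of them binds in the family was not tested. Of the B chip genes, Kprp, a keratinocyte proline-rich protein whose gene stands between Lce1k and Lce1l in the order of tested genes, read 702.0 and 756.4 in null skin, against 11780.0 and 12880.4 in wild-type skin, a log2 fold change of -3.98.

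**Figure D4:**
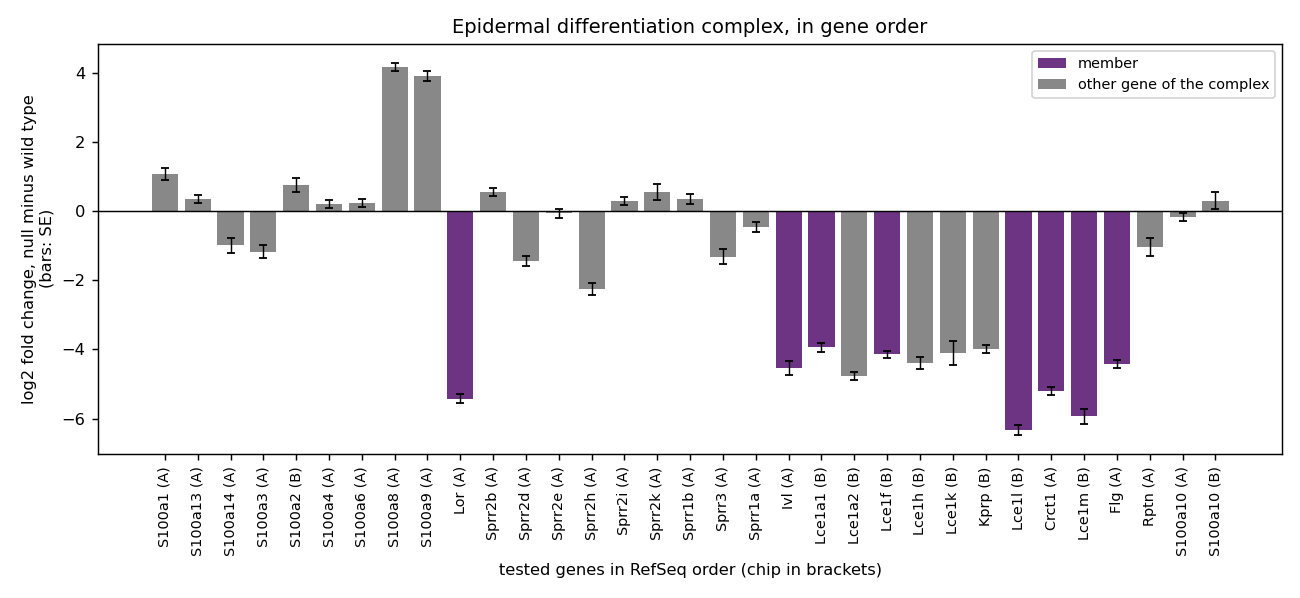
Log2 fold change with SE, p63 null minus wild type, of the tested genes from S100a1 to S100a10 in RefSeq order, members in purple and other genes in grey (chip in brackets, each gene by its probe set with the highest signal). The members' bars all reach -3.94 or lower, while S100a8 and S100a9 reach 4.17 and 3.90 on the other side of Lor.

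Partners of the members in envelope assembly fell too. The 17 listed scaffold and crosslinking genes had 6 tested on the A chip, all 6 lower (median log2 fold change -2.96). On the B chip 4 were tested, all 4 lower (median -2.29). Over all tested probe sets, 22.2% of the A chip and 14.9% of the B chip were lower. Corneodesmosin (Cdsn), periplakin (Ppl), Krtdap and desmoplakin (Dsp) had log2 fold changes of -3.71, -3.25, -3.03 and -2.90. On the B chip those of suprabasin (Sbsn), envoplakin (Evpl), the stefin Stfa3 and the cystatin Cst6 were -4.31, -2.57, -2.01 and -1.32, with limma adjusted p of at most 0.000509 for all 8. The epidermal transglutaminases Tgm3 and Tgm5, enzymes that crosslink the members, stayed under the level for testing. Tgm3 read 19.3 and 13.9 in null skin, against 119.6 and 100.1 in wild-type skin on the A chip.

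Enzymes that cut profilaggrin and take filaggrin apart, listed with the protease inhibitor Spink5, were divided. Of 18 listed genes, 11 were tested on the A chip, with 5 lower, 1 higher and a median of -0.28. On the B chip 6 were tested, with 5 lower, 0 higher and a median of -3.42. The shares lower over all tested probe sets were 22.2% and 14.9%. With wild-type replicate 1 or 2 left out, 3 were lower on the B chip, and with wild-type replicate 1 or either null array left out, 2 were higher on the A chip. Histidine ammonia-lyase (Hal), which turns the histidine released from filaggrin into urocanic acid, had a log2 fold change of -5.04. Caspase-14 (Casp14), the protease Asprv1 (SASPase) and bleomycin hydrolase (Blmh), which act in filaggrin processing and breakdown, had values of -3.63, -3.59 and -1.81. On the B chip the kallikrein Klk5 read 38.2 and 46.9 in null skin, against 4179.2 and 4916.2 in wild-type skin, a log2 fold change of -5.57. Klk7 and matriptase (St14) had -4.18 and -3.50, and Asprv1 there had -3.33. The limma adjusted p of these genes was at most 6.77e-05, and Hal, Klk5 and St14, with null signals under the level for testing, could only be tested as lower. Padi2, a deiminase, rose, with 326.3 and 314.7 in null skin and 154.5 and 141.6 in wild-type skin (log2 fold change 1.05, limma adjusted p = 0.000503).

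Transcription factors and sensors of terminal differentiation, 36 in the list, fell in 12 of 21 tested cases on the A chip and rose in 1. Trp63 was among the 12, and the median was -1.07. Of all tested probe sets of the A chip 22.2% fell. With the filter at the 60th percentile 7 of 15 were lower there, with a median of -0.32, and 5 of 9 on the B chip, with a median of -0.65. On the B chip, where 14.9% of all tested probe sets fell, 8 of 12 fell and 1 rose, with a median of -0.94. There 5 of 11 fell when wild-type replicate 2 was left out, while 2 rose when null replicate 2 was. Dlx3, Tfap2c, Gata3 and Prdm1 had log2 fold changes of -3.65, -3.52, -3.38 and -2.51 on the A chip, where their null signals were under the level for testing, so that they could only be tested as lower. The same holds for Zfp750, Gata3 and Grhl1 on the B chip. Zfp750, Gata3, Grhl1 and Tfap2b had -2.78, -2.19, -2.16 and -1.91 on the B chip, with limma adjusted p of at most 0.000793 for all 8. With either wild-type array left out, Grhl1 and, among the filaggrin enzymes, St14 were under the level for testing. The AP-1 consensus letters stood before Lor and Ivl, and only looser letters before Flg. Of the AP-1 subunits, the A chip tested 4 and the B chip 1. Fos had -0.32 (limma adjusted p = 0.0882), Jun -0.02 (limma adjusted p = 0.919) and Junb 0.25 (limma adjusted p = 0.319), and Jund rose by 0.48 (limma adjusted p = 0.0146). That rise lost its call without wild-type replicate 1 (0.55, limma adjusted p = 0.0712) or 2 (0.41, limma adjusted p = 0.192). Fosl2, read by the B chip, was lower at -0.68 (limma adjusted p = 0.00615), and with wild-type replicate 2 left out it was at -0.65 (limma adjusted p = 0.0520). Maf, a related factor, rose by 0.67 on the B chip (limma adjusted p = 0.00420). The AP-1 subunits other than Jund were named after their values were seen.

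The members' falls were set against those of keratins made in the cell layers below. Krt10, a suprabasal keratin, read 1918.6 and 2346.5 in p63 null skin, against 7120.7 and 6823.8 in wild-type skin, a log2 fold change of -1.71, and Krt1, its partner, had -3.14. Within each array, log2 Lor over Krt10 was -3.82 and -3.76 in null skin, against -0.08 and -0.08 in wild-type skin, a difference of -3.71. For Flg over Krt10 the difference was -2.70, for Ivl -2.82 and for the Crct1 probe set 98518_f_at -3.49. Against Krt1 the differences were -2.27 for Lor, -1.27 for Flg, -1.39 for Ivl and -2.05 for Crct1. Both null ratios lay below both wild-type ratios in each case, with an exact two-sided permutation p = 0.333, the smallest that 2 arrays against 2 allow. In whole skin, fewer keratinocytes and less RNA per keratinocyte cannot be told apart.

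Markers of the epidermis mostly fell like the members, while those of muscle, fat cells and leukocytes mostly rose. Epidermal markers were lower in 9 of 10 tested genes on the A chip, with a summed signal of 3881 and 4220 in null skin, against 26467 and 25226 in wild-type skin. With no filter on low signal, 8 of these 10 were lower. The basal keratins Krt5 and Krt14 read at most 15.9 in any array and could not be used. Not all keratins fell. Of the markers listed for simple and other epithelium, 5 were tested on the A chip, with 1 lower and 2 higher. Krt17 had a log2 fold change of -2.96, while Krt6a and Krt16 had 1.63 and 1.05. On the B chip Krt6a had 0.83. Skeletal muscle markers were higher in 10 of 10, adipocyte markers in 8 of 9, leukocyte markers in 9 of 10 and fibroblast markers in 4 of 9, a count that was 7 without null replicate 1 and, when wild-type replicate 1 or 2 was left out, 2 or 1. Their summed signals were 18229 and 20002 in null skin against 9066 and 9196 in wild-type skin for muscle, and 8504 and 9060 against 3548 and 3398 for leukocytes. Adipocyte sums were 17564 and 17740 in null skin, against 8379 and 8095 in wild-type skin, and fibroblast sums 39350 and 46734, against 36062 and 34019. None of these lists had a marker at 0. In wild-type skin Ucp1, Plin4 and Ptprc were under the level for testing, so these markers passed through null skin alone and could only be tested as higher. The epidermal marker Dsc1 was under it in null skin on the A chip and could only be tested as lower. Over all tested probe sets of the A chip, 1646 of 7453 were higher and 22.2% lower. The beta-actin 3'/5' signal ratio, a sign of RNA integrity, was 1.27 in both null arrays, against 1.63 and 1.69 in wild-type skin, for the A chip. For the B chip it was 1.36 and 1.33 in null skin, against 1.50 and 1.98 in wild-type skin. The Gapdh 3'/5' ratio was 1.25 and 1.45 in null skin, against 1.47 and 2.46 in wild-type skin, for the A chip. For the B chip it was 1.26 and 1.51 in null skin, against 1.55 and 2.66 in wild-type skin, so wild-type replicate 2 stood apart on both. The part of these in the members' falls was not tested. Null replicate 2 stood apart in the CreX hybridisation spike, at 6420 on the A chip against 3334 to 3837 in the other arrays, and the 11 tested members kept their direction and call without it, and likewise without wild-type replicate 2.

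The genes whose pattern over the 4 arrays was most like Lor were found by the root mean square distance of their centred log2 values among 6752 other probe sets. They were the serpin Serpina12 (distance 0.051), Ggct (0.187), Hal (0.242), Fgfbp1 (0.339) and the interleukin-36 receptor antagonist Il1f5 (0.438). Serpina12 read 9.2 and 15.5 in null skin, against 1140.3 and 1126.9 in wild-type skin. On the B chip, the nearest to Lce1f 111891_f_at among 6808 were the desmosomal cadherin Dsc1 (0.042), Nlrp10 (0.057), Muc15 (0.062), the keratin Krt23 (0.083) and Kprp (0.086). Their log2 fold changes lay between -4.24 for Krt23 and -3.98 for Kprp. The distance is on the scale with the offset added. Muc15, at 7.1 and 3.6 in null skin, and Krt23, at 44.8 and 36.6, lay under the offset of 54.3, and Serpina12 lay around that of 12.9, so their nearness depends on the offset and does not show a like fall in signal. The distance says nothing of shared control.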

How the data were processed

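RNA of whole E18.5 skin was hybridised to an A chip and a B chip, 2 p63 null and 2 wild-type arrays each, grouped by sample title. In the deposited tables each probe set has 1 intensity on a linear scale. Per the submitters' processing notes the authors used MAS5, whose version and detection calls the sources used here do not give. The arrays of a chip shared 1 trimmed mean at a 2% trim (250.1 to 250.2 and 500.1), so the authors had scaled them, and each chip was analysed apart. The number of arrays limits the precision.

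Signals were rescaled to 1 trimmed mean, the 20th percentile of the chip (12.9 and 54.3) was added, and log2 was taken, which understates falls to low signal. After 66 control probe sets per chip were left out, probe sets with a mean above the 40th percentile were fitted with limma 3.58.1 in R 4.3.3 (eBayes with trend, two-sided), and p-values were Benjamini-Hochberg adjusted over the 7453 and 7446 tested, with a threshold of 0.05. The script was tested on simulated data. Gene names came from the platform annotation, which can be old, and sequences and gene order from RefSeq GRCm38.p6.

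The members and the lists were chosen with earlier results of these data known. Named beside the members and Trp63 are, per list and chip, up to 4 genes with the largest changes among those called, any called gene against the direction of its list where there are at most 3, and the 5 nearest patterns per chip. Outside this rule, and chosen after their values were seen, are Rptn, Tgm3, Tgm5, Lce1b, Spink5, Fos, Jun, Junb and Fosl2. So are Ucp1, Plin4, Ptprc, the keratins Krt1, Krt10, Krt5, Krt14, Krt6a, Krt16 and Krt17, and all Sprr genes but Sprr2h and Sprr2d. The labels do not say whether a number marks the same embryo on both chips, nor that embryos came from separate litters, so p-values measure the spread between these samples.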

Additional observations from a re-analysis of the deposited data

How the results depend on the processing

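The values of the 11 tested member probe sets were recomputed under 12 alternatives: other scalings, offsets and filters, no variance trend, the replicate block, and each array left out in turn. They gave 131 values, since Ivl was under the filter at the 60th percentile, and all 131 kept their direction and their call, with limma adjusted p of at most 0.0446. The offset moved the falls of Ivl and Lce1l and 1 null array that of the Lce1f probe set 164918_i_at by over 1.5 times, as given with those genes. Over the whole A chip 3299 probe sets passed, and 2125 to 3375 with 1 array left out. On the B chip 2189 passed, and 1119 to 2599 with 1 array left out, so that without wild-type replicate 1 or 2 the counts were 1175 and 1119. The deviations of same-numbered null and wild-type arrays correlated at 0.04 (A chip) and -0.05 (B chip). With 1 difference per genotype on each chip, this cannot decide whether same-numbered arrays share more than a number. With the replicate block 3368 and 2411 probe sets passed and 5 and 6 members were lower. Signals near the bottom of the scale limit the size of the falls, because no detection calls were used.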
